A study of Pan troglodytes with 50 samples.

Results

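The regions described here are 36423 sites of the chimpanzee genome that carried a called peak of H3K27ac, the acetylation of lysine 27 on histone H3, at stage N3 and no called peak at stage N2. They were chosen by the 2 deposited peak lists alone. A region was taken when its peak in the N3 list was under 5000 bases wide and did not share a single base with any peak of the N2 list. The N3 list held 89425 peaks and the N2 list 102693, so the regions make up 36423 of the 192118 peaks in both lists. Of the 85031 N3 peaks under 5000 bases, 42.8% met the rule (95% Wilson interval 42.5 to 43.2%, counting error only), and 48608 overlapped an N2 peak. Applied the other way round, the rule left 49865 of 97360 N2 peaks under 5000 bases without a peak at N3, or 51.2%. Because the rule is itself the comparison of the stages, these shares are given as a description and without a test.

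All peaks came from Pt2A, an induced pluripotent stem cell line made from 1 chimpanzee and grown into neural cells in culture. The labels describe N2 as neural progenitors and N3 as glial progenitors, give both the tissue term telencephalon, and state that the cells were kept in N2B27 medium with bFGF and EGF at 20 ng/mL. For each stage there were 2 H3K27ac libraries and 2 input libraries, and 1 peak list per stage, named as pooled. The spread between replicates can therefore not be measured, the read depth of the pools is unknown, and no difference between the stages carries a p-value. Pt2A is a single line, and H3K27ac in a second animal was not analysed here. The growth conditions are worded alike for both stages, and the steps of the ChIP are not described in the sources used here.

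H3K27ac is laid down by the acetyltransferases p300 and CBP on nucleosomes next to active promoters and enhancers, and is removed by histone deacetylases. Enhancers gain and lose the mark as cells change fate, while many promoters of widely used genes keep it in every cell type. Neural progenitors of the forebrain first give rise mainly to neurons and later turn to making glia, and enhancers of glial genes are among those that become active on the way. The peaks lie on a chimpanzee assembly with chromosomes 2A and 2B whose version is not stated, and neither a genome nor an annotation of that assembly was used here. The regions are therefore described by position, size, strength and surroundings, without genes, promoters or sequence, and the labelled cell type was not checked against marker genes. Positions are 1-based on the assembly of the lists.

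The N3-only regions were mostly small and weak. Their median width was 556 bases (quartiles 366 and 1039), against 1478 bases (633 and 2519) for the N3 peaks under 5000 bases that overlapped N2. Strength is given by 2 values that the authors' peak caller wrote for each peak: a signal value, which rises with the enrichment of reads over background, and −log10 q, which rises as the false discovery rate falls. The median signal value of the N3-only regions was 2.78 (quartiles 2.36 and 3.61), while that of the overlapping N3 peaks was 4.78 (2.83 and 12.2). The median −log10 q was 4.26 (2.70 and 8.40) against 16.6 (4.85 and 89.4). The regions covered 31.0 Mb of sequence in all, and the overlapping peaks 83.3 Mb. The 49865 N2-only peaks had nearly the same profile as the N3-only regions, with a median width of 571 bases, a median signal value of 2.81 and a median −log10 q of 4.09.

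**Figure D1:**
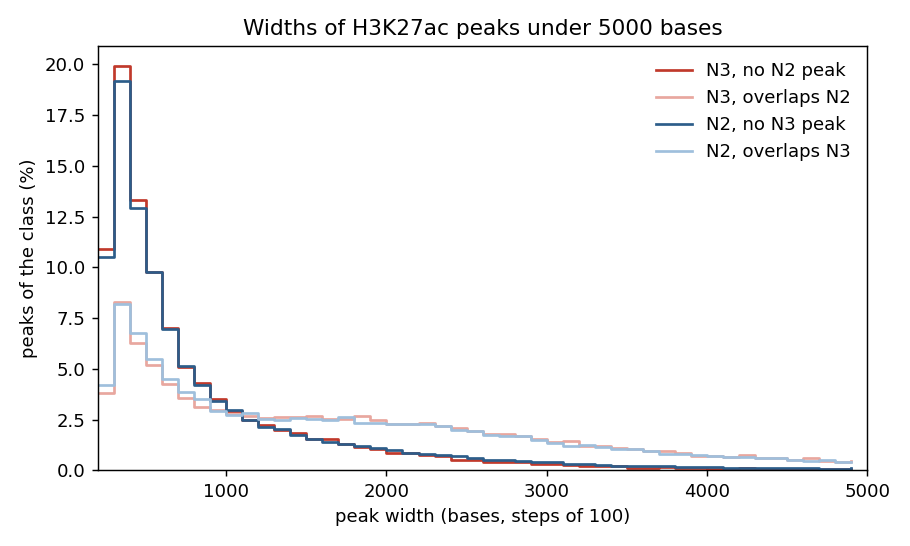
Widths of peaks under 5000 bases in steps of 100 bases (x axis) as a percentage of the peaks of each class (y axis), for peaks of each stage with and without a peak at the other stage. The N3-only curve is highest between 300 and 400 bases, where 19.9% of the regions lie, and runs close to the N2-only curve.

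The shortest regions were 273 bases wide, and that was also the smallest width in the overlapping N3 class. Of all N3-only regions, 10.9% were under 300 bases wide and 33.2% from 300 to under 500 bases. At the other end, 671 regions were 3000 to under 4000 bases wide and 261 were 4000 to under 5000 bases wide. Among N3 peaks under 300 bases 68.2% lacked an N2 peak, and among those of 4000 to under 5000 bases 8.53%. A wide peak has more bases with which to meet an N2 peak, and the part of this in the fall was not tested. The summit lay near the middle, at a median of 49.4% of the width (quartiles 35.0 and 63.8%), as in the overlapping N3 peaks (49.6%).

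The share of N3 peaks without an N2 peak fell steadily with strength. It was 65.6% of 6559 peaks with a −log10 q under 2, 51.7% of 15518 peaks from 5 to under 10, 27.8% of 9376 peaks from 20 to under 50, and 5.02% of 4560 peaks from 100 to under 200. Of the 7150 peaks at 200 or more, 26 were N3-only, or 0.364% (95% Wilson interval 0.248 to 0.532%). The N2 list also declined, at a higher share in each class, from 71.6% under 2 to 0.897% at 200 or more. The weakest peaks of the lists had a p of 0.01. The signal at N2 itself is not in the lists, and the absence of a called peak does not give its level.

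**Figure D2:**
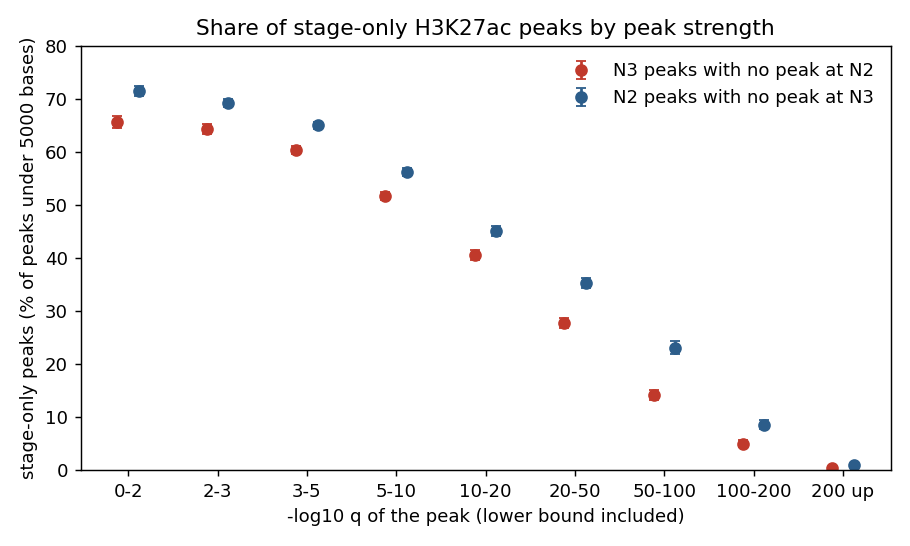
Share of peaks under 5000 bases that have no peak at the other stage (y axis, %) by −log10 q of the peak (x axis), with 95% Wilson intervals that cover counting error only. Both stages decline from left to right, N3 from 65.6 to 0.364% and N2 from 71.6 to 0.897%.

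At equal strength the N3-only regions had median signal values close to those of the overlapping N3 peaks. Their median width was smaller in every class under a −log10 q of 50 and greater in every class from 50. From 5 to under 10 the median widths were 734 and 855 bases. From a −log10 q of 10 to under 20 the median widths were 1355 and 1447 bases, and the median signal values 4.47 and 4.41. From 20 to under 50 they were 2010 and 2052 bases, at 6.64 for both. In the class from 50 to under 100 the median widths were 2815.5 and 2572 bases, at 10.7 and 10.6. From 100 to under 200 the N3-only regions were wider, with a median of 3457 bases against 2579, at signal values of 16.5 and 16.2, and the same order held for N2-only against overlapping N2 peaks in that class (3450 and 2468.5 bases). At 200 or more they were 4007 bases for the 26 N3-only regions and 2952 for the overlapping peaks. What goes with the greater width was not tested.

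Nearly all of the regions had a q of 0.05 or less, and a minority were strong. At a q of 0.05 or less stood 35407 regions, and 1016 regions (2.79%) were weaker than that, against 569 (1.17%) of the overlapping N3 peaks. A −log10 q of at least 5 was reached by 15713 regions (43.1%), of at least 20 by 3610 (9.91%), of at least 50 by 1005 (2.76%) and of at least 100 by 255 (0.700%). The 3610 regions at 20 or more are called strong regions here, and N2-only peaks at 20 or more strong N2-only peaks, although the values of separate pools are not on a common scale. Among the 5000 N3 peaks with the highest signal, 3411 were under 5000 bases and 10 of these were N3-only, while the first 20000 held 899 N3-only regions. In the N2 list the first 5000 held 24 N2-only peaks and the first 20000 held 1783.

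The region with the highest signal stood well apart from the others. It was chr15:4626585-4629569, 2985 bases wide, with a signal value of 56.1 and a −log10 q of 551, and it ranked 100 in the whole N3 list by signal. Its nearest N2 peak began 2019 bases away, which was the shortest such distance among the 12 N3-only regions of highest signal. The next was chr18:70585639-70589078, with a signal value of 35.0 and no other N3 peak within 50 kb. Its nearest N2 peak lay 180.585 kb away. The third was chr20:30396759-30401036, 4278 bases wide, with a signal value of 34.7 and a −log10 q of 421. It had 11 other N3-only regions within 50 kb, no N3 peak of another kind in that distance, and no N2 peak within 315.411 kb.

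The other 9 of the first 12 had signal values between 27.3 and 33.9. On chromosome 4 these were chr4:56502190-56505280 (signal value 33.9) and chr4:70359366-70363910 (27.3), and on chromosome 3 chr3:11037089-11039888 (32.6) and chr3:173901967-173906483 (29.0). The narrowest was chr5:179354240-179355725, at 1486 bases and a signal value of 32.6. The most isolated from N2 was chr17:46520027-46524017, with a signal value of 28.8, a −log10 q of 303 and no N2 peak within 447.16 kb. It lay among 12 other N3-only regions within 50 kb. The last 3 were chr13:88229080-88233790 (30.3), chr9:21905681-21909959 (28.6) and chr1:220404223-220409180 (27.4). All but 1 of the 12 had at least 1 other N3-only region within 50 kb, the exception being the region on chromosome 18. Near neighbours were usual, as 1.33% of all N3-only regions had no other N3 peak of any kind within less than 100 kb. The share of all regions with an N3-only neighbour within 50 kb was not counted. In rank order the 10th N3-only region had a signal value of 28.6, close to the 27.9 of the 10th N2-only peak, whereas the 1000th had 9.13 against 10.6. The classes hold 36423 and 49865 peaks, so an equal rank is not an equal share of each. The signal values also come from separate pools that are not on a common scale.

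Few regions lay right at the edges of the rule. The count depended more on what counts as overlap. It rose from 36423 to 40201 when N2 had to cover the summit of the N3 peak. It rose to 44043 when N2 had to cover 50% of the N3 peak. The 5 widest regions were 4984 to 4997 bases wide, with chr12:131849095-131854091 the widest (signal value 25.6) and chr20:53831332-53836327 next (6.80). Just over the limit, and therefore left out, were chr5:167336699-167341701 at 5003 bases (signal value 15.5), chr10:61927950-61932958 at 5009 (15.6) and chr14:31729339-31734374 at 5036 (24.4), none of which overlapped an N2 peak. In all, 204 N3 peaks of 5000 bases or more lacked an N2 peak, or 4.64% of 4394. At the other edge of the rule, 8 regions touched an N2 peak without sharing a base, among them chr2B:7313311-7313744 (signal value 2.38), and 253 lay within less than 50 bases of one. A further 274 N3 peaks were left out because they shared 1 to 50 bases with N2, among them chr22:6512468-6512943, which shared 1 base (signal value 2.53).

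Many of the regions lay close to N2 peaks. The median gap to the nearest N2 peak was 7267 bases (quartiles 2013 and 25786), and the gap was under 1000 bases for 14.4%, under 5000 bases for 42.4% and under 10000 bases for 56.6%. Conversely, 3013 regions (8.27%) lay at least 100000 bases from any N2 peak and 311 at least 500000. Strong regions lay farther away, with a median of 16888 bases and 15.6% at 100000 bases or more. The 49865 N2-only peaks had a median gap to N3 peaks of 7752 bases, and the 5017 strong ones 17467 bases. Peaks on both sides within less than 2000 bases, that is a region held between N2 peaks, were found for 1308 regions (3.59%).

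**Figure D3:**
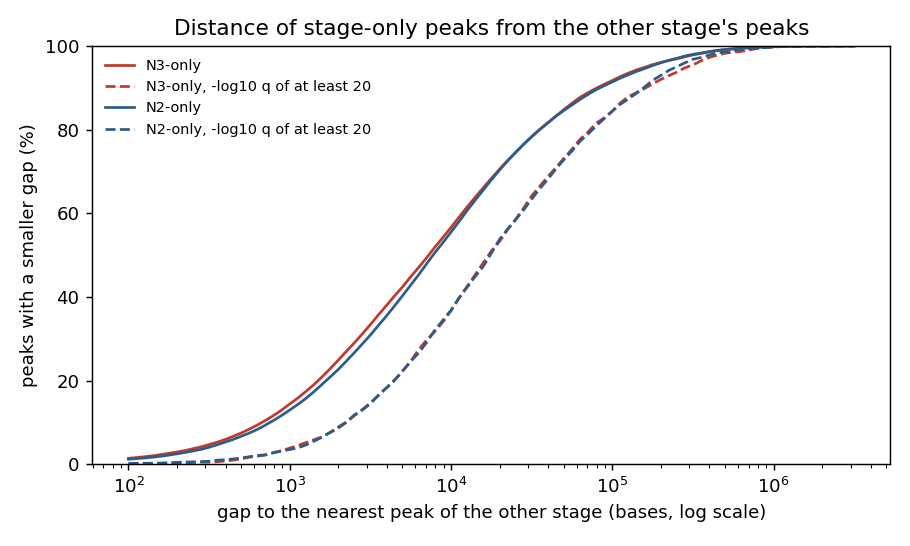
Cumulative share (y axis, %) of stage-only peaks by the gap to the nearest peak of the other stage (x axis, bases, log scale), for all stage-only peaks (solid) and those with a −log10 q of at least 20 (dashed). The curves of the stages nearly coincide, and the strong peaks are shifted to larger gaps, with medians of 16888 bases at N3 and 17467 at N2.

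There were 5250 regions less than 1000 bases from an N2 peak. The stage-only peak more often had the lower −log10 q of the pair, as it did at N2. The median −log10 q was 3.46 for the regions and 5.89 for the N2 neighbours, the median widths were 439 and 868 bases, and the neighbour had the higher −log10 q in 68.4% of cases. For the 6472 N2-only peaks less than 1000 bases from an N3 peak the medians were 3.39 and 7.13, and the N3 neighbour had the higher −log10 q in 71.6%. A neighbour of 5000 bases or more was present for 257 of the 5250 regions, or 4.90%. Any peak of the other stage could be the neighbour, overlapping peaks included, whereas stage-only peaks had the lower median −log10 q at both stages. What part this has in the majority of stronger neighbours was not tested. The −log10 q values of a pair also come from separate pools that are not on a common scale.

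By their surroundings the regions fell into several kinds. Within 1000 bases of an N3 peak that was shared with N2 lay 6793 regions (18.7%), which had a median −log10 q of 3.64 and a median width of 463 bases. A further 1052 (2.89%) had no such neighbour but an N2 peak within 1000 bases, at a median −log10 q of 3.23. With no peak of either stage within 10000 bases stood 6057 regions (16.6%), and these were stronger, at a median −log10 q of 5.73 and a median width of 715 bases. The remaining 22521 (61.8%) met none of these 3 descriptions, and some could lie close to another N3-only region. For all N3-only regions the median gap to the nearest other N3 peak of any kind was 1065 bases (quartiles 286 and 6766). Among the 3610 strong regions, 6.04% were beside a shared N3 peak and 26.2% were isolated in this sense. For N2-only peaks the corresponding shares were 17.2% beside a shared N2 peak and 13.1% isolated, and 6.30% and 19.8% among the strong ones.

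Broad domains, taken here as peaks of 5000 bases or more, mark stretches of strong and continuous acetylation that are often found at genes of cell identity. Within less than 5000 bases of a broad N3 peak lay 11.4% of the N3-only regions, and within less than 50000 bases 35.8%, against 9.15% and 34.2% of the overlapping N3 peaks. Broad N2 peaks were farther off, with 3.65% of the regions within less than 5000 bases of one and 20.5% within less than 50000. The last 2 shares are lowered by the rule, which removes every region that overlaps a broad N2 peak. The N2-only peaks mirrored this with their own stage, at 14.4% within less than 5000 bases of a broad N2 peak and 3.93% of a broad N3 peak.

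The regions came in groups along the chromosomes. The next peak of the N3 list was again an N3-only region for 57.2% of the regions, but for 28.1% of the overlapping N3 peaks, while the regions made up 40.7% of the whole N3 list. N2-only peaks did the same in the N2 list, at 63.0% and 32.7%, while they made up 48.6% of it. When regions were chained over gaps of at most 100000 bases with no N2 peak between them, they formed 17879 runs. Alone in its run was 27.6% of the regions, while 51.0% were in runs of at least 3 and 8.24% in the 217 runs of at least 10. N2-only peaks formed longer runs, with 15.2% in 488 runs of at least 10 and 82 runs of at least 20, against 21 such runs for N3. The N2-only class is also the larger, and what part its size has in the run lengths was not tested.

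The 4 runs with the most regions were on chromosomes 10, 12 and 13, and the fifth place was shared by runs of 32 regions on chromosomes 8 and 2A. The run on chromosome 8 is described as the fifth because its highest signal value was the larger, and that on chromosome 2A, chr2A:395060-578284, spanned 183.225 kb with signal values up to 10.8. The run with the most was chr10:106076175-106690474, with 39 regions over 614.3 kb, of which 10 were strong, and signal values from 2.06 to 10.6, the highest at chr10:106209424-106214295. The most compact of the 5 was chr12:131951244-132101505, with 36 regions in 150.262 kb, or 24.0 per 100 kb, led by chr12:132059593-132064362 with a signal value of 16.4. Next to it on the same chromosome lay another long run, chr12:132113304-132201256, with 30 regions in 87.953 kb. The run chr12:52394033-52872015 held 35 regions over 477.983 kb and was led by chr12:52507204-52509047 (signal value 17.8, 1844 bases wide). It also contained 5 broad N3 peaks, and no N2 peak was listed for 522.668 kb before it and 3791.66 kb after it. The whole stretch of 4.79 Mb without N2 peaks held 40 N3 peaks, 35 of them N3-only regions. All of these lay in the run, so N3 had no peak in those flanks either.

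The 2 remaining runs of these 5 were on chromosomes 13 and 8. In chr13:27384319-27958331 there were 34 regions over 574.013 kb, of which 7 were strong, and chr13:27872694-27875586 reached a signal value of 22.2 and a −log10 q of 190. In chr8:25049588-25495712 there were 32 regions over 446.125 kb, of which 10 were strong, and chr8:25484771-25488337 reached a signal value of 26.0 and a −log10 q of 195. The median −log10 q within the 5 runs went from 3.69 to 7.87, beside 4.26 for all N3-only regions, and the runs held 5 to 10 strong regions each. A run on chromosome 17, chr17:46437572-46634161, had 25 regions and 5 broad peaks, and held the region of signal value 28.8 given above. No N2 peak was listed for 364.705 kb before and 375.549 kb after it, and N3 peaks in those flanks were not counted.

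**Figure D4:**
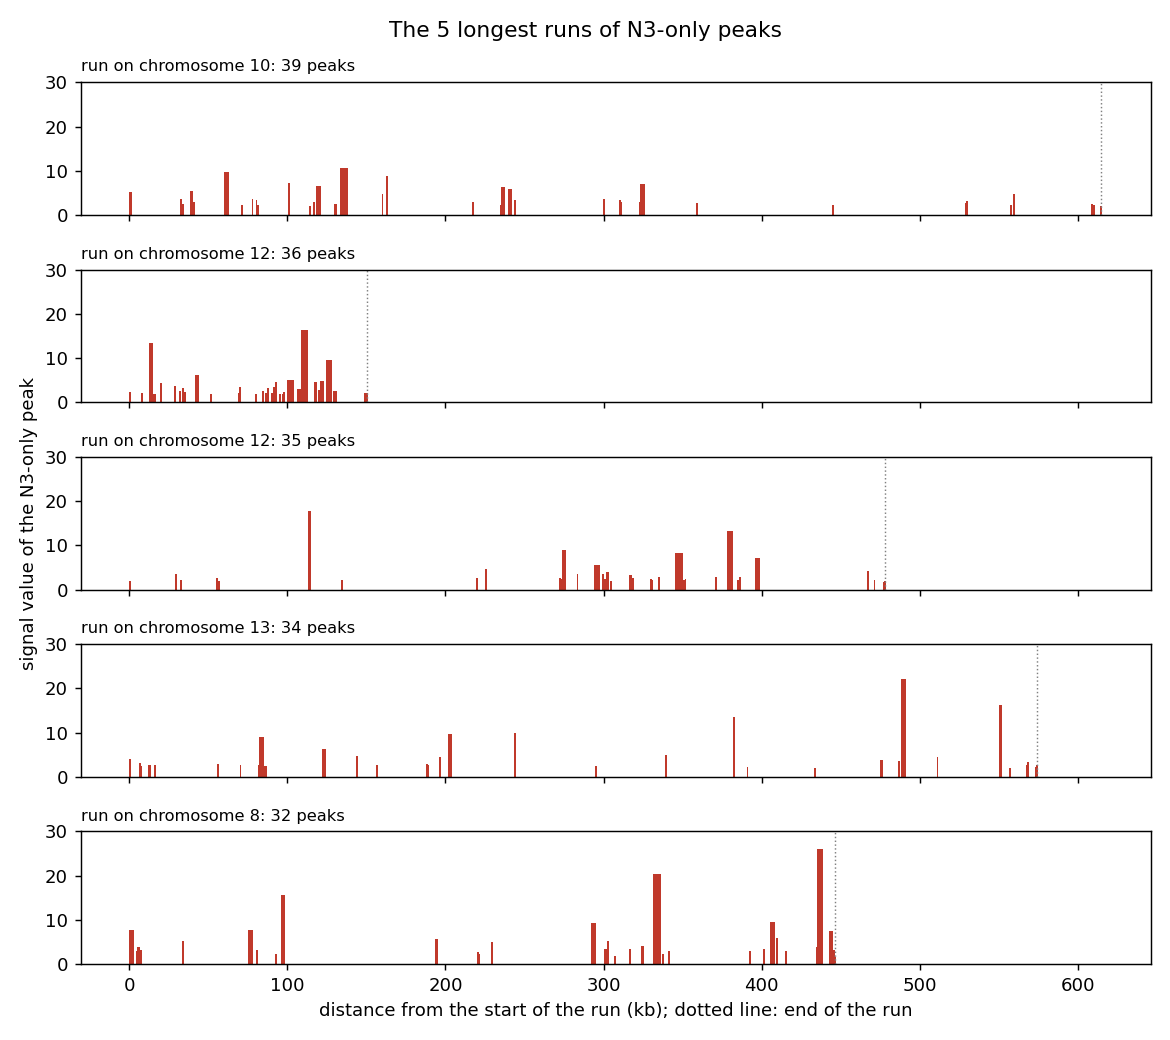
The 4 runs with the most N3-only regions and, of 2 runs tied for the fifth place with 32 regions, the one on chromosome 8 with the higher signal, with the distance from the start of the run (x axis, kb) and the signal value of each region (y axis), each bar as wide as the region or at least 1.2 kb. Each run has a few high regions among many low ones, the highest being 26.0 on chromosome 8 and 22.2 on chromosome 13. Broad N3 peaks inside the runs are not drawn (1, 1, 5, 2 and 0 from top to bottom).

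Large stretches with no N2 peak at all contained some of the regions. At least 1 Mb from any N2 peak lay 30 regions (0.0824%), in 12 stretches. N2-only peaks had this trait more often, with 98 (0.197%) at least 1 Mb from any N3 peak. Most of the 30 regions were not strong: in 9 of the stretches the median −log10 q was between 2.81 and 14.9, and the other 3, which had the highest medians, are described here. On chromosome 14, 4 regions between 25510925 and 26224420 were the only N3 peaks in a stretch of 3.29 Mb without N2 peaks, with a median −log10 q of 50.0 and a highest signal value of 12.2. On chromosome 1, 2 regions between 106196948 and 106310882 had a −log10 q of 67.6 and 129, in a stretch of 2.30 Mb without N2 peaks. That stretch held 6 N3 peaks, all of them N3-only. On chromosome 16, 6 regions between 34611475 and 35016529 were the only N3 peaks in 5.83 Mb, with a median −log10 q of 17.4. Across the 12 stretches the number of N3 peaks went from 1, on Y, to 40 on chromosome 12, 35 of them N3-only. The stretch on chromosome 2A held 26, all N3-only. Whether such stretches include parts of the assembly that hold no sequence was not tested, as no genome of this build was used.

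The chromosomes differed in how many of their N3 peaks were N3-only. Leaving out Y, the share was lowest on chromosome 19, where 541 of 2344 peaks were N3-only (23.1%, 95% Wilson interval 21.4 to 24.8%), and low on chromosomes 17 (31.7%) and 14 (32.8%). It was highest on chromosomes 4 (2300 of 4362, 52.7%, interval 51.2 to 54.2%), 18 (51.8%) and 13 (49.8%). The share of N2-only peaks varied less, from 44.7% on X to 56.4% on chromosome 10. Peaks on a chromosome are not independent of each other, so the intervals are too narrow as a measure of the spread between chromosomes. Chromosome Y held 119 N3 peaks under 5000 bases, of which 82 (68.9%) were N3-only, and 67 N2 peaks, of which 20 (29.9%) were N2-only.

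**Figure D5:**
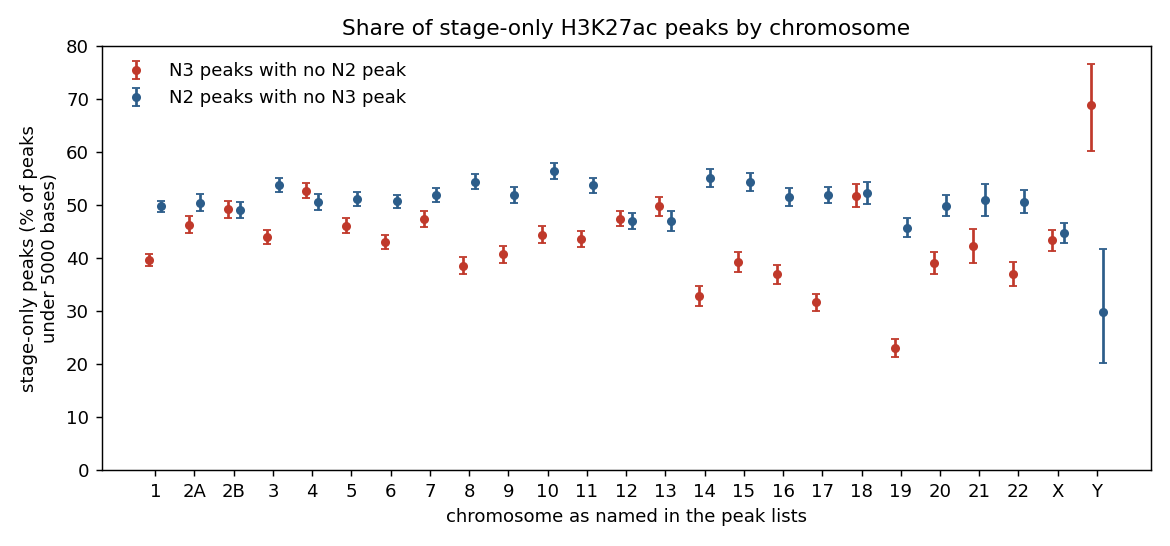
Share of peaks under 5000 bases with no peak at the other stage (y axis, %) for each chromosome (x axis), with 95% Wilson intervals for counting error. The N3 share is lowest on chromosome 19 at 23.1% and, apart from Y, highest on chromosome 4 at 52.7%, while the N2 share stays between 44.7 and 56.4% outside Y.

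On chromosome 19 the low share went with many overlapping peaks and few N3-only regions. There were 8.82 N3-only regions per Mb on chromosome 19, counted up to the last peak, and 29.4 overlapping N3 peaks per Mb. Chromosome 4 had 11.8 and 10.6 per Mb. Over the 24 chromosomes other than Y the density of N3-only regions ran from 6.69 per Mb on X to 17.6 on chromosome 22, and that of overlapping N3 peaks from 8.75 on X to 29.9 on chromosome 22. On chromosome 14 the densities were 8.63 N3-only regions, 17.7 overlapping N3 peaks and 20.4 N2-only peaks per Mb.

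The number of N3-only regions against N2-only peaks also differed by chromosome. For all chromosomes together there were 0.730 N3-only regions for each N2-only peak, and 0.720 when both were limited to strong peaks. The ratio was 1.12 on chromosome 13 and 1.07 on chromosome 4, and was 0.389 on chromosome 19, 0.424 on chromosome 14 and 0.465 on chromosome 17. Among strong peaks the order was similar, with 176 N3-only and 96 N2-only on chromosome 13, 256 and 227 on chromosome 4, 64 and 187 on chromosome 19, and 64 and 200 on chromosome 14. The ratio of all N3 to all N2 peaks under 5000 bases moved in the same sense (1.06 on chromosome 13, 0.771 on chromosome 19, 0.713 on chromosome 14), and its part in these differences was not tested.

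On a finer scale the regions were found in most windows, about as unevenly as the overlapping N3 peaks. The 10% of windows with the most held 30.3% of the N3-only regions and, ranked for themselves, 29.6% of the overlapping N3 peaks. Of 2830 windows of 1 Mb with any peak under 5000 bases, 2631 held at least 1 N3-only region, and the median over the 2830 windows was 10 (quartiles 4 and 18). Across these windows the number of N3-only regions correlated weakly with that of N2-only peaks (Pearson r = 0.0812) and more with that of overlapping N3 peaks (r = 0.397). For N2-only with overlapping N2 peaks r was higher, at 0.577. Windows share their chromosome and libraries and are not independent, so these values are descriptions. In 616 windows there were at least 20 N3-only regions, and 128 of these held at most 5 N2-only peaks. The reverse pattern, with at least 20 N2-only peaks and at most 5 N3-only regions, occurred in 208 of the 1014 windows with at least 20 N2-only peaks. Over all 2830 windows the lower quartile of N3-only regions was 4, so counts of at most 5 were common in any case. The share of all windows with at most 5 N2-only peaks was not counted, and neither pattern is read as an excess.

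The window richest in regions was chr22:20000001-21000000, with 92 N3-only regions, 18 overlapping N3 peaks and 2 N2-only peaks, so that 83.6% of its N3 peaks under 5000 bases were N3-only. The window chr12:132000001-133000000, which holds 1 of the neighbouring runs on that chromosome whole and the other in part, followed with 88 regions, 7 overlapping peaks and 18 N2-only peaks. The first window of chromosome 2A held 85, 13 and 2. On chromosome 4, chr4:17000001-18000000 held 76 N3-only regions, 12 overlapping N3 peaks and 10 N2-only peaks. In chr11:19000001-20000000, by contrast, 69 N3-only regions stood beside 57 overlapping N3 peaks and 39 N2-only peaks, so a high count of regions also occurred where N2 had many peaks of its own.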

How the data were processed

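H3K27ac ChIP-seq peaks of Pt2A at N2 and N3 were used. Each deposited list is named as pooled. How the replicates were pooled, the peak caller and the version of the chimpanzee assembly were not given in the sources used here. The submitters' processing notes name GRCh37, a human build, while the lists have chromosomes 2A and 2B. The deposited lists give per peak a signal value and −log10 q, both from the authors' caller and read by the narrowPeak layout, a score, which is the whole part of 10 times −log10 p, and the summit. The smallest score was 20, a p of 0.01. The lists held 0 peaks that overlapped another of their list and 0 on unplaced sequences. Overlaps and gaps were computed in Python 3.11.15 with numpy 2.4.6 and pandas 2.3.3, tested on simulated data, and gave the same regions as bedtools 2.31.1. Shares have Wilson intervals (statsmodels 0.14.6). No test was run, as there is 1 list per stage.

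Regions named are the 12 of highest signal, the 5 widest, 3 on each side of each limit of the rule (widths, gaps; examples of them are printed), and the 5 runs with the most regions (a tie for the fifth place was settled by the highest signal value). The region of highest signal within a run is named too. Others (the 2 further runs, windows, and stretches far from N2) were chosen after their values were seen. The regions and most measures were chosen with earlier results of these data known. The gene lists, gene context and motifs planned for these regions were not analysed, since they need a genome and annotation of this assembly. Reporter assay counts of the series were not used here, because their elements are placed on GRCh37.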

Additional observations from a re-analysis of the deposited data

How the results depend on the processing

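The number of N3-only regions, 36423 as reported, stayed within 1.5 times when an N2 peak had to cover 50% of the N3 peak or its summit, when N2 peaks within 1000 bases also counted, with widths under 2000 bases or no width limit, with both lists at the same number of peaks, and with N2 peaks of −log10 q of at least 5. It fell to 15713 with N3 peaks of −log10 q of at least 5, where the median width of the regions was 1111 bases instead of 556 and the median −log10 q 9.75 instead of 4.26. The share, 42.8% as reported, was 51.8% with 50% cover, 47.3% by the summit, 36.7% with N2 peaks within 1000 bases, 52.0% under 2000 bases, 41.0% with no width limit, 30.2% with N3 peaks of −log10 q of at least 5, 53.6% with such N2 peaks, and 45.6% with lists of equal number. Alternatives chosen after seeing the data gave 3610 regions (13.7%) with N3 peaks of −log10 q of at least 20, at medians of 2216 bases, a signal value of 7.33 and a −log10 q of 34.4, and 58428 (68.7%) with such N2 peaks, and nearly the same values without chromosome Y. Lists without unplaced sequences were the lists themselves. Alternatives for gene starts, gene lists and motifs were not run, for lack of a genome of this build. No paired analysis was possible because the lists used are 1 pooled list per stage.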
